A study of Homo sapiens with 2 samples.

Results

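The 35 aminoacyl-tRNA synthetase genes described here encode the enzymes that load amino acids onto their tRNAs. The genes were chosen by name, not by a measured value, though earlier results of these data were known. By symbol, 19 were cytosolic, including FARSA and FARSB, the subunits of the cytosolic phenylalanine enzyme, and 16 were mitochondrial, with symbols ending in 2. They were 35 of the 19821 protein-coding genes on chromosomes 1 to 22 and X in the gene table used. Transcription start sites had been called by PRO-cap, a nuclear run-on method in which newly made RNA is read from its capped first base, in wild-type HUDEP-2 cells, an immortalised human erythroid progenitor line. There were 2 biological replicates of this 1 group, with no treatment and no other cell line. The start calls were deposited as 1 set of 26395 positions (13229 forward, 13166 reverse), with no replicate named and a score of 0 at every call. The depth behind a call is therefore unknown, no spread between replicates can be given, and a gene without a call can still be transcribed.

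A synthetase recognises an amino acid and the tRNAs that carry it, and the charged tRNA is then handed to an elongation factor for translation. The enzymes fall into class I and class II by the fold of their catalytic domain, and several cytosolic members are held together with scaffold proteins in the multisynthetase complex. Mitochondria translate with their own tRNAs and, for most amino acids, with a separate synthetase that is encoded in the nucleus and imported. Uncharged tRNA activates the kinase GCN2, and the transcription factor ATF4, made downstream of it, is known to switch on many cytosolic synthetase genes when amino acids run short. Erythroid cells translate globin in very large amounts.

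Most synthetase genes had a called start. Calls no farther than 500 bp from either end of a gene, and directed into it, were counted as its start, and 29 of 35 synthetase genes had one (82.9%, 95% Wilson interval 67.3 to 91.9), against 41.4% of all protein-coding genes. Intervals here and below cover counting error only. Among cytosolic genes 17 of 19 had a start (89.5%, 68.6 to 97.1), and among mitochondrial genes 12 of 16 (75%, 50.5 to 89.8). The difference was 14.5 percentage points, and its Newcombe interval ran from -11.1 to 40.1, so that it did not separate the compartments at this number of genes. With the gene ends moved by 10 kb, 0 of the 35 genes and 2.39% of all protein-coding genes had such a call.

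**Figure D1:**
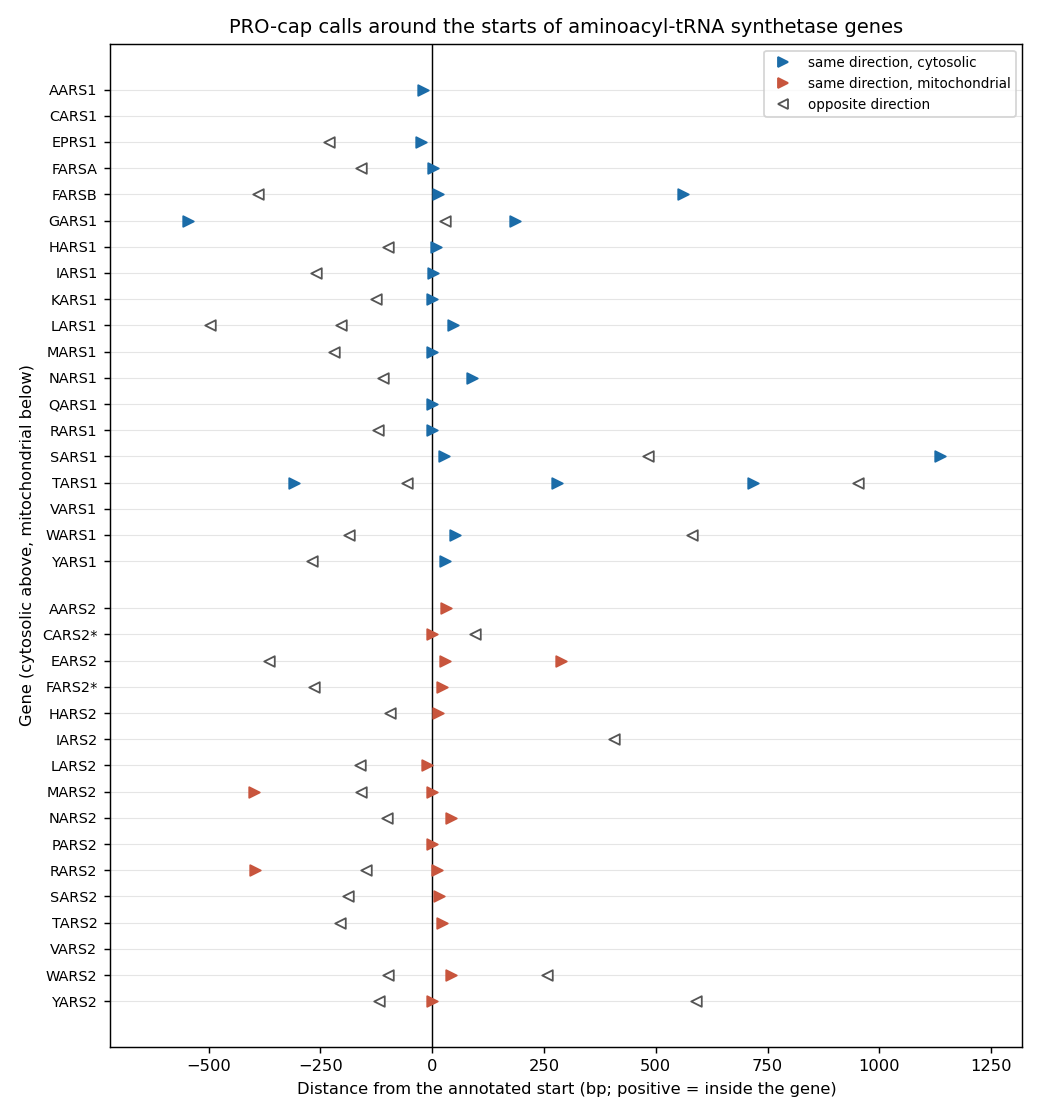
Positions of PRO-cap calls around the annotated start of each synthetase gene, in bp with positive values inside the gene. Filled symbols are calls in the direction of the gene (blue cytosolic, red mitochondrial) and open symbols are calls in the opposite direction. CARS2 and FARS2, marked with an asterisk, are drawn around inner RefSeq starts because their outer end had no start call. Each of their calls is placed by its own nearest RefSeq start. Distances and order between calls of these genes therefore cannot be read from the figure. The filled symbols of 26 of the 29 genes with a called start lie within 50 bp of the line at 0.

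Erythroid marker genes were called in the same set and markers of other cell types were not. The erythroid marker genes GATA1, KLF1, ALAS2, AHSP, NFE2, EPOR, SLC4A1 and HBB each had a called start. None of 12 markers of T cells, hepatocytes, monocytes, muscle and stroma had one (0 of 12, Wilson upper limit 24.2%), and of these 12 APOA1 alone had a call elsewhere in or near the gene.

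The 6 synthetase genes without a start at a gene end were CARS1 and VARS1 among the cytosolic, and CARS2, FARS2, IARS2 and VARS2 among the mitochondrial. CARS2, the mitochondrial cysteine enzyme (chr13:110641410-110713522), had 7 calls in or within 500 bp of its body. A reverse call at position 110706117 pointed along the gene, 7405 bp inside its outer end and 1 bp before an inner RefSeq start at 110706116. Further reverse calls lay 623 and 1107 bp inside the outer end, past the 500 bp limit. FARS2, the mitochondrial phenylalanine enzyme (chr6:5249934-5771583) and at 521650 bp the longest of the 35 genes, had a forward call at 5261534, which lay 21 bp inside an inner RefSeq start at 5261513 and 11600 bp inside the outer end. Both genes therefore had a call at an annotated start that the outer gene end does not mark.

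Counting calls at RefSeq starts as well, 31 of 35 synthetase genes had a start (88.6%, 74.0 to 95.5), against 45.3% of protein-coding genes. The cytosolic count stayed at 17 of 19 and the mitochondrial count became 14 of 16 (87.5%, 64.0 to 96.5), a difference of 1.97 points (-20.8 to 26.7). In the 30 genes whose strand and starts were in the promoter table, 28 had a call on the gene strand within 500 bp of a RefSeq start (93.3%, 78.7 to 98.2), against 47.1% of the 15812 coding genes with such an entry. That was 15 of 16 cytosolic and 13 of 14 mitochondrial genes. LARS1, VARS1, YARS1, AARS2 and VARS2 had no entry.

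Of the remaining 4 genes, 3 had no call and 1 had a call that pointed against it. IARS2, the mitochondrial isoleucine enzyme (chr1:220094132-220148041), had a single call, a reverse one at 220094538 that lay 406 bp inside the start and pointed against the gene. CARS1, the cytosolic cysteine enzyme (chr11:3000929-3057423), had no call in its 56495 bp or within 500 bp of it. VARS1 (chr6:31777518-31795752) and VARS2 (chr6:30914238-30926459), the cytosolic and mitochondrial valine enzymes, had none either, and both lie in a run of 172 consecutive protein-coding genes on chromosome 6, from 28503296 to 33457544, that held 0 calls. Alternate sequences of chromosome 6 held 11 calls, and whether any of them belong to these genes was not tested. Counting a call of any direction in or within 500 bp of the gene, 32 of 35 synthetase genes had one (91.4%, 77.6 to 97.0), against 52.6% of protein-coding genes, with 17 of 19 cytosolic and 15 of 16 mitochondrial.

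**Figure D2:**
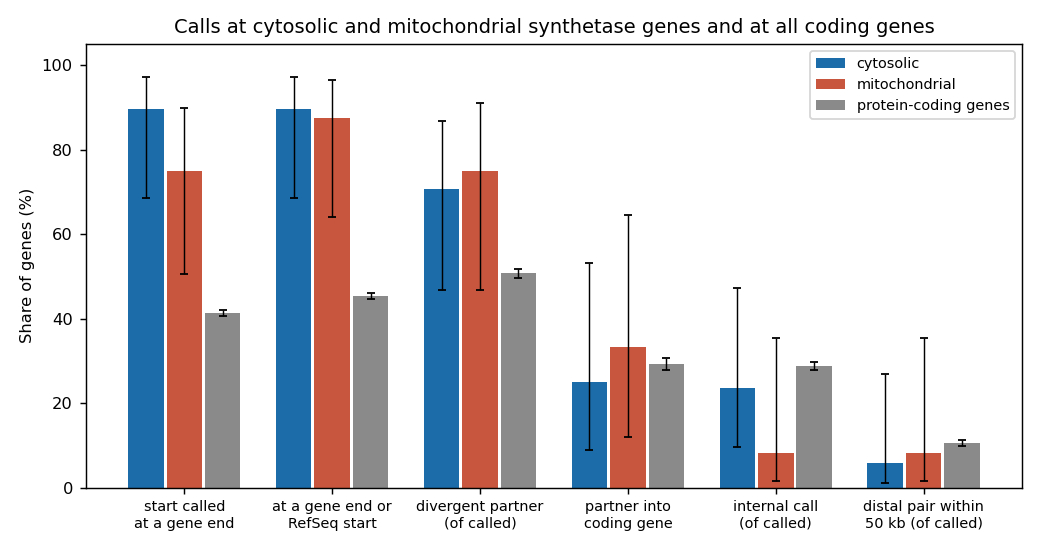
Share of genes (%) with each kind of call for cytosolic (blue), mitochondrial (red) and all protein-coding genes (grey), with 95% Wilson intervals as bars. The cytosolic and mitochondrial intervals overlap in all 6 comparisons, and called starts stand at 89.5% and 75% against 41.4% of all protein-coding genes.

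By structural class, 15 of 16 class II genes had a start at a gene end (93.8%, 71.7 to 98.9). Among class I genes 14 of 19 had one (73.7%, 51.2 to 88.2), against 41.4% of all protein-coding genes. EPRS1, which holds a domain of each class, was counted in class I. Of the 6 genes without such a start, FARS2 alone was class II, and the cysteine, valine and isoleucine enzymes without one belong to class I. VARS1 and VARS2 are those in the run on chromosome 6 that held no calls. With RefSeq starts counted too, 16 of 16 class II genes had a start (100%, 80.6 to 100). For class I it was 15 of 19 (78.9%, 56.7 to 91.5), against 45.3% of protein-coding genes. All 7 enzymes of the multisynthetase complex had a start at a gene end (7 of 7, 64.6% to 100%). So did 10 of 12 cytosolic enzymes outside it (83.3%, 55.2 to 95.3), against the same 41.4% of all protein-coding genes.

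The called starts of the complex enzymes lay close to their annotated first base. KARS1, the lysine enzyme that serves both compartments, was called exactly on it at position 75647665 of chromosome 16. QARS1, the glutamine enzyme, was called on its first base too, at 49104757 of chromosome 3. MARS1 (methionine) at 57488067 of chromosome 12 and RARS1 (arginine) at 168486470 of chromosome 5 were each called 1 bp outside the gene. IARS1 (isoleucine) was called 2 bp inside, at 92293695 of chromosome 9. The other two lay farther off. EPRS1, which charges both glutamate and proline tRNAs, was called 26 bp outside at 220046531 of chromosome 1, and LARS1 (leucine) 47 bp inside at 146182603 of chromosome 5. Thus 5 of the 7 lay within 10 bp of the gene end (71.4%, 35.9 to 91.8), against 45.9% of all protein-coding genes with a start.

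Among cytosolic enzymes outside the complex, 2 of 10 starts were within 10 bp of the gene end, those of FARSA, 1 bp inside, and HARS1 (histidine), 9 bp inside. FARSB was called 13 bp inside, AARS1 (alanine) 21 bp outside, SARS1 (serine) 26 bp inside, YARS1 (tyrosine) 28 bp inside and WARS1 (tryptophan) 50 bp inside. The farthest 3 were NARS1 (asparagine) at 88 bp, GARS1 (glycine) at 186 bp and TARS1 (threonine) at 280 bp, all inside. Further annotated starts were nearer for some of these genes. The SARS1 call was 1 bp, the TARS1 call 11 bp and the GARS1 call 43 bp downstream of another RefSeq start. GARS1 is, like KARS1, a single gene that supplies the enzyme of both compartments.

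Measured from the gene end, the 12 mitochondrial starts lay in a narrower range. CARS2 and FARS2, which had no start at a gene end, are not among them. From the nearest RefSeq start, with CARS2 and FARS2 included, the farthest call was 88 bp away for cytosolic and 42 bp for mitochondrial genes. MARS2 (methionine), PARS2 (proline) and YARS2 (tyrosine) were each called 1 bp outside the gene, and LARS2 (leucine) 12 bp outside. RARS2 (arginine) at 11 bp, HARS2 (histidine) at 13 bp, SARS2 (serine) at 16 bp and TARS2 (threonine) at 22 bp were called inside. EARS2 (glutamate) at 29 bp, AARS2 (alanine) at 31 bp, WARS2 (tryptophan) at 41 bp and NARS2 (asparagine) at 42 bp made up the rest, also inside. All 12 lay within 50 bp of the gene end, as did 14 of 17 cytosolic starts (82.4%, 59.0 to 93.8) and 77.6% of all protein-coding starts. The difference of -17.6 points, cytosolic minus mitochondrial, had an interval from -41.0 to 9.17.

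Within 10 bp of the gene end lay 10 of the 29 synthetase starts (34.5%, 19.9 to 52.7), against the 45.9% given above for all protein-coding genes, with 7 of 17 cytosolic and 3 of 12 mitochondrial. Measured from the nearest RefSeq start instead, 13 of 28 were within 10 bp (46.4%, 29.5 to 64.2), against 51.9%. The median start was 13 bp inside the gene for all 29 synthetase genes, 9 bp for cytosolic, 14.5 bp for mitochondrial and 4 bp for all protein-coding genes. With the most upstream start call of each gene in place of the nearest, the medians were 9, 2 and 14.5 bp for all, cytosolic and mitochondrial synthetase genes.

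**Figure D3:**
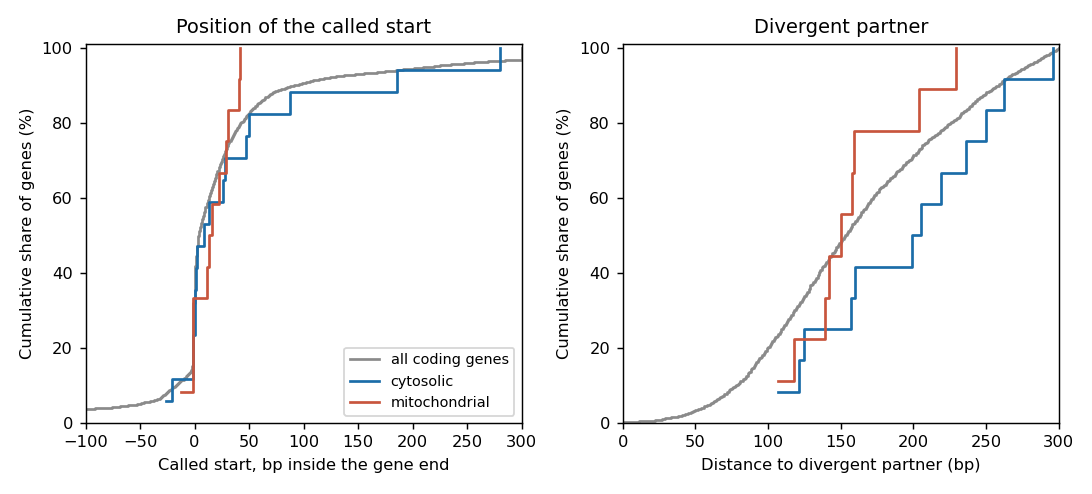
Cumulative share of genes (%) by the position of the called start in bp inside the gene end (left) and by the distance in bp to the divergent partner (right), for cytosolic (blue), mitochondrial (red) and all protein-coding genes (grey). The mitochondrial starts end at 42 bp, while the cytosolic ones reach 280 bp, and the cytosolic partners lie at a median of 202 bp against 150 bp for the mitochondrial ones. Genes without a start at a gene end, CARS2 and FARS2 among them, are not drawn. The call at 280 bp, that of TARS1, was 11 bp from a further RefSeq start.

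The bases at the called starts are shown for 6 genes in which C was called and A followed, and for 3 in which it did not. Each sequence is the RefSeq strand of the gene in GRCh38, 5′ to 3′, with the called base and the base after it in capitals.
FARSA, chr19:12933705-12933740, reverse strand: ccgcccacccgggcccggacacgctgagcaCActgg
MARS1, chr12:57488037-57488072, forward strand: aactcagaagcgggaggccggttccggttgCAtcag
RARS1, chr5:168486440-168486475, forward strand: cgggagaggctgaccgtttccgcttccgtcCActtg
CARS2, chr13:110706112-110706147, reverse strand: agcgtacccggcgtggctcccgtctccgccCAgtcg
MARS2, chr2:197705338-197705373, forward strand: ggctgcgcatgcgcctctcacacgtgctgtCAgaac
YARS2, chr12:32755893-32755928, reverse strand: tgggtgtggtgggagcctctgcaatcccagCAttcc
KARS1, chr16:75647660-75647695, reverse strand: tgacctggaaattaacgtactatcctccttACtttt
QARS1, chr3:49104752-49104787, reverse strand: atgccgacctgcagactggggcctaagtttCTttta
LARS2, chr3:45388534-45388569, forward strand: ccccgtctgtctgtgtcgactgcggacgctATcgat

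Human promoters commonly start on a purine that follows a pyrimidine, often the A of CA. Of 26 synthetase starts that fell in a promoter window with enough sequence, 8 had a pyrimidine before and a purine at the called base (30.8%, 16.5 to 50), and the share over 6363 coding genes was also 30.8%. Read 1 base further downstream, the same pair was present at 14 of 26 synthetase starts (53.8%, 35.5 to 71.2) and at 47.1% of the coding genes, 46.4% for forward and 47.9% for reverse calls. CA stood at the called base and the next one in 13 of 26 synthetase starts (50%, 32.1 to 67.9), 7 of 13 cytosolic and 6 of 13 mitochondrial, and in 37.0% of all. CA ending on the called base was found in 0 of 26 and 1.32%. The commonest offset from the RefSeq start was also 1 bp upstream, with 6 of 28 synthetase genes and 18.9% of all coding genes, against 2 of 28 and 11.4% directly on the RefSeq start. The cause of this offset was not tested, and positions are printed as deposited.

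**Figure D4:**
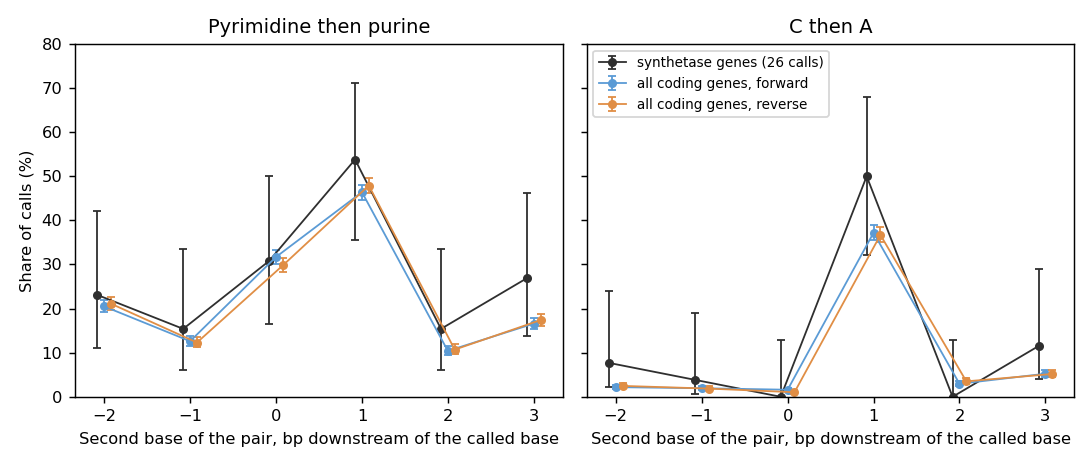
Share of calls (%) with a pyrimidine followed by a purine (left) or C followed by A (right), by the position of the second base of the pair in bp downstream of the called base, with 95% Wilson intervals. Black is the 26 synthetase starts, and blue and orange are all coding genes on the forward and reverse strands. Each line peaks 1 bp downstream of the called base, at 50% for CA in the synthetase genes.

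Many synthetase starts were bidirectional. A divergent partner, that is, an upstream call of the other strand at most 300 bp away, was present at 21 of 29 starts (72.4%, 54.3 to 85.3), against 50.7% of all called protein-coding genes. Cytosolic genes had 12 of 17 (70.6%, 46.9 to 86.7) and mitochondrial genes 9 of 12 (75%, 46.8 to 91.1), a difference of -4.41 points (-33.1 to 28.1). The share depended on the limit, since within 150 bp 8 of 29 starts had a partner (27.6%, 14.7 to 45.7), against 24.6% of all called protein-coding genes. Within the multisynthetase complex 6 of 7 starts had a partner, all but that of QARS1. The other genes without one were AARS1, FARSB, SARS1, TARS1, AARS2, EARS2 and PARS2. In FARSB, TARS1 and EARS2 the nearest upstream call of the opposite strand lay just beyond the limit, at 403, 337 and 393 bp.

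The distance between the diverging starts ran from 107 to 296 bp over the 21 genes, with a median of 159 bp, against 153 bp over all protein-coding genes. Cytosolic partners lay at a median of 202 bp, from HARS1 at 107 bp to YARS1 at 296 bp. Mitochondrial partners lay at a median of 150 bp, from HARS2 at 107 bp to TARS2 at 229 bp. No test of this difference was made, and the ranges overlap.

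Partners of 6 synthetase genes pointed into another protein-coding gene (6 of 21, 28.6%, 13.8 to 50), against 29.3% of all partners. HARS1 and HARS2, the cytosolic and mitochondrial histidine enzymes, faced each other on chromosome 5 and were each other's partner. The same pair of calls is therefore counted in both compartments. HARS1 was called at 140691361 and HARS2 at 140691468, 107 bp apart, while their annotated starts were 85 bp apart. The KARS1 partner, 125 bp away, pointed into TERF2IP, which encodes the telomere protein RAP1, 17 bp inside that gene. The WARS1 partner, 236 bp away, entered WDR25. The RARS2 partner at 158 bp lay 1 bp outside ORC3, a subunit of the origin recognition complex. The SARS2 partner at 204 bp lay 7 bp inside MRPS12, a protein of the mitochondrial ribosome. Each of these calls gave the neighbouring gene its own called start, so that the start pair belonged to a pair of coding genes.

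The stretch between the HARS1 and HARS2 calls is shown because both histidine enzymes start from it. It is chr5:140691356-140691473, forward strand of GRCh38 from RefSeq, and the capitals mark both called bases (the first single capital is HARS1, on the opposite strand, the last HARS2) and the letters CGGAAG or their complement CTTCCG, which ETS factors bind.
HARS1 to HARS2: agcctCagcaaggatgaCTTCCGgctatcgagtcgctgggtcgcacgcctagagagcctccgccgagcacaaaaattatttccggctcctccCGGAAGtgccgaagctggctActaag
The ETS letters lay 17 bp upstream of the HARS1 call and 20 bp upstream of the HARS2 call, counted from their first base, each reading toward its own gene.

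Facing genes did not always give a partner. AARS1 lies 261 bp from the annotated start of DDX19B, an RNA helicase, and no call pointed into DDX19B there. EARS2 and UBFD1 were both called, 393 bp apart and so beyond the partner limit. The FARS2 call was 792 bp from a call that pointed into the facing gene LYRM4. At the outer end of CARS2 the neighbour ING1 overlaps the gene, and a call at 110712192 pointed into ING1. Its offset was -431 bp, outside the ING1 gene end and near the 500 bp limit. The WARS2 partner, 139 bp upstream, pointed into the noncoding gene WARS2-AS1. Only the start call nearest the gene end was checked for a convergent call. By that count WARS2 was the 1 synthetase gene of 29 with one, 215 bp downstream on the opposite strand (3.45%, 0.611 to 17.2), against 8.12% of all called protein-coding genes. Further start calls of TARS1, MARS2 and RARS2, not counted here, also faced an opposite call. It lay between the further call and the start call nearest the gene end.

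A second start call in the same direction was seen at 4 of 29 genes (13.8%, 5.50 to 30.6), against 15.4% of all called protein-coding genes. TARS1 had calls 310 bp outside and 280 bp inside its gene end. MARS2 had a call 398 bp outside and RARS2 one 397 bp outside, beside their main starts, and EARS2 a further call 287 bp inside. That was 1 of 17 cytosolic and 3 of 12 mitochondrial genes, a difference of -19.1 points (-47.8 to 7.43).

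Internal calls, more than 500 bp inside both gene ends, were found in 7 of 35 synthetase genes (20%, 10 to 35.9), against 20.7% of all protein-coding genes. Cytosolic genes had 4 of 19 and mitochondrial genes 3 of 16. CARS2 held 5 of the 14 calls, and SARS1, TARS1 and FARS2 held 2 each. FARSB had 1 at 560 bp, WARS1 1 at 581 bp and YARS2 1 at 589 bp inside, so that these lay just past the limit. The outermost internal call of CARS2, at 623 bp, was also near it. None of the 7 genes of the multisynthetase complex had an internal call. Of genes with a start, 5 of 29 had an internal call (17.2%, 7.60 to 34.5), against 28.9%, with 4 of 17 cytosolic and 1 of 12 mitochondrial, a difference of 15.2 points (-15.3 to 39.9). Per 100 kb of inner gene length there were 0.563 internal calls in called synthetase genes, 0.914 in cytosolic and 0.170 in mitochondrial ones, and 1.01 in all called protein-coding genes. Over all genes, called or not, there were 0.710 in synthetase genes, 0.823 in cytosolic and 0.643 in mitochondrial ones, and 0.677 in all protein-coding genes. CARS2 and FARS2, which had no start at a gene end, held 7 of the 8 internal calls of the mitochondrial genes.

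In SARS1 the internal calls were a forward one 1136 bp inside, along the gene, and a reverse one 4803 bp inside. In TARS1 they were a forward call at 718 bp and a reverse call at 953 bp. In CARS2 the 5 calls included the inner start and further reverse calls, along the gene, at 623 and 1107 bp inside the outer end. The others were the forward call that pointed into ING1 and a forward call at 7103 bp. The call at 7103 bp lay upstream of the inner start and pointed away from it, just beyond the 300 bp partner limit. In FARS2 the pair was the inner start and the LYRM4 call.

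Distal divergent pairs, in which a reverse and a forward call lie more than 1000 bp from every gene end and point apart, are a pattern seen at active enhancers. One lay within 50 kb of 2 of 29 synthetase starts (6.90%, 1.91 to 22), against 10.5% of all called protein-coding genes. The genes were FARSA, with the pair 31.8 kb away, and EARS2, with the pair 46.8 kb away.

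Promoter sequence was read in 300 bp windows from 250 bp before to 50 bp after the most upstream RefSeq start, on both strands. Motif letters are a description of sequence and not of binding. The letters TGATGNAA, the composite site of ATF4 with C/EBP factors, were present in 5 of 16 cytosolic windows (31.2%, 14.2 to 55.6) and 1 of 14 mitochondrial windows (7.14%, 1.27 to 31.5). Over all 15812 coding windows the share was 2.52%, and over the 7440 genes called at a RefSeq start it was 1.38%. When any RefSeq window of a gene was counted, 7 of 16 cytosolic genes (43.8%, 23.1 to 66.8) and 1 of 14 mitochondrial genes held them. The share was 3.6% of all coding genes and 2.28% of those called at a RefSeq start. This count was added after the data were seen. In the part of the window upstream of the annotated start only, the count was 2 of 16 cytosolic (12.5%, 3.5 to 36.0) and 1 of 14 mitochondrial windows (7.14%, 1.27 to 31.5), against 2.21% of all coding windows and 1.12% of those of called genes.

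These 8 genes are shown with the composite letters in capitals, because the letters lie close to the called base in several of them. Each stretch is 30 bases of the gene strand, 5′ to 3′, from RefSeq on GRCh38.
AARS1, chr16:70289675-70289704, reverse strand: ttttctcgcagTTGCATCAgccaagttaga
CARS1, chr11:3057407-3057436, reverse strand: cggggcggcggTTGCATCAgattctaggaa
GARS1, chr7:30594834-30594863, forward strand: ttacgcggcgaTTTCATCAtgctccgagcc
IARS1, chr9:92293692-92293721, reverse strand: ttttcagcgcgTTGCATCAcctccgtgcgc
MARS1, chr12:57488053-57488082, forward strand: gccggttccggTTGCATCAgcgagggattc
NARS1, chr18:57621804-57621833, reverse strand: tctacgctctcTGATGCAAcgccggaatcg
TARS1, chr5:33440956-33440985, forward strand: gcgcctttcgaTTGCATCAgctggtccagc
YARS2, chr12:32756076-32756105, reverse strand: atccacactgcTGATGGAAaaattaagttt

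In MARS1 the composite letters ran across the called base, which was 3 bp downstream of their first base. In TARS1 the call came 2 bp after their last base and in IARS1 8 bp after it. The letters ended 67 bp before the call in NARS1, 69 bp before it in GARS1, 159 bp before it in AARS1 and 189 bp before it in YARS2. CARS1 had the letters across its annotated start, from 2 bp before it, but no call. In 6 of the 8 genes the letters read TGATGNAA on the strand opposite the gene, and in NARS1 and YARS2 on the strand of the gene.

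**Figure D5:**
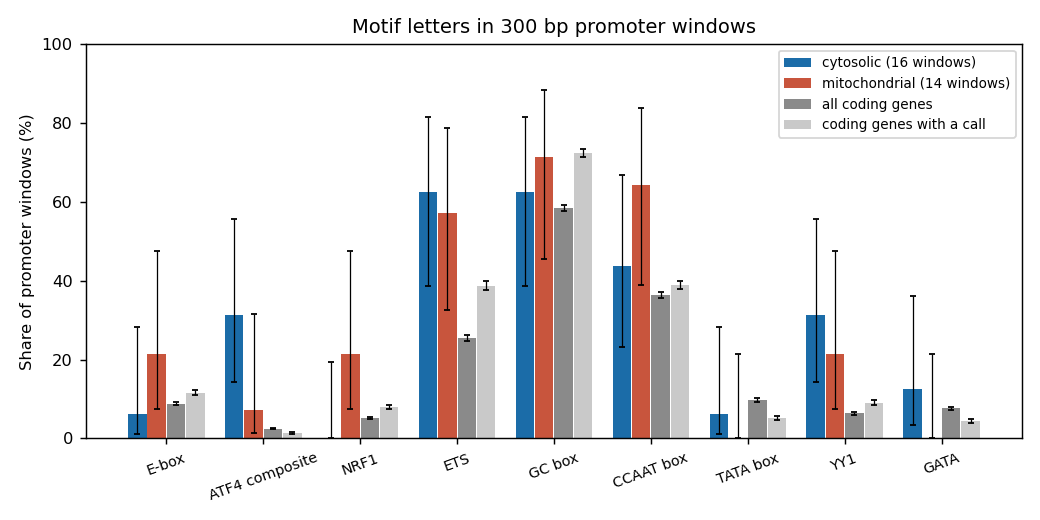
Share of promoter windows (%) that hold each motif's letters, for cytosolic (blue, 16 windows), mitochondrial (red, 14 windows), all coding genes (dark grey) and coding genes with a call at a RefSeq start (light grey), with 95% Wilson intervals. The ATF4 composite letters stand at 31.2% of cytosolic windows against 2.52% of all coding windows, and the ETS letters at 62.5% and 57.1% against 25.5%.

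The ETS letters CGGAAG were in 18 of 30 synthetase windows (60.0%, 42.3 to 75.4), 10 of 16 cytosolic and 8 of 14 mitochondrial, against 25.5% of all coding windows and 38.7% of those of called genes. The HARS1 and HARS2 windows overlap and hold the same ETS sites, which are counted in both compartments. The YY1 letters AAGATGG were in 8 of 30 (26.7%, 14.2 to 44.4), 5 of 16 cytosolic and 3 of 14 mitochondrial, against 6.36% and 9.10%. Upstream of the annotated start alone they were in 4 of 30 (13.3%, 5.31 to 29.7), against 3.38% and 3.97%. Those were 4 of 16 cytosolic and 0 of 14 mitochondrial windows. CCAAT, the NF-Y box, was in 16 of 30 whole windows (53.3%, 36.1 to 69.8), against 36.4% and 38.9%, with 7 of 16 cytosolic and 9 of 14 mitochondrial. The GC box GGGCGG of SP and KLF factors was in 20 of 30 (66.7%, 48.8 to 80.8), against 58.3% and 72.4%. None of these letter strings contains another of them, but neighbouring matches can share bases, as in GC box and ETS letters.

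The NRF1 letters GCATGCG, bound by a regulator of many nuclear genes for mitochondrial proteins, were in 0 of 16 cytosolic windows (upper limit 19.4%) and in 3 of 14 mitochondrial ones (21.4%, 7.57 to 47.6), those of MARS2, NARS2 and YARS2. The share was 5.15% over all coding windows and 7.96% over those of called genes. The palindromic E-box CACGTG of MYC and USF factors was in 1 of 16 cytosolic windows, that of IARS1, and in 3 of 14 mitochondrial windows, those of CARS2, EARS2 and MARS2, against 8.82% and 11.6%. TATAAA was in 1 of 30 windows, that of GARS1, against 9.75% and 5.17%. The erythroid GATA letters AGATAA were in 2 of 30, those of FARSA and TARS1 (6.67%, 1.85 to 21.3), against 7.63% and 4.38%. Windows followed the most upstream RefSeq start, so some letters lay far from the called base. Their first base was 348 bp before it for TATAAA in GARS1, 305 bp for GATA in TARS1 and 401 bp for the E-box in CARS2. It was nearer for GATA in FARSA (227 bp) and for the E-box in IARS1 (188 bp), EARS2 (19 bp) and MARS2 (10 bp).

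The base composition of the synthetase windows was close to that of all coding windows in GC and to that of called genes in the CpG ratio. Their median GC content was 62.0%, from 46.7% in FARSB to 73.0% in FARS2, against 62.7% for all coding windows and 65.3% for those of called genes. The median ratio of observed to expected CpG was 0.868, from 0.430 in CARS2, whose window lies inside the gene at its most upstream RefSeq start, to 1.21 in EPRS1, against 0.762 for all and 0.868 for called genes.

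The genes that work with the synthetases were also mostly called, 32 of 39 at a gene end (82.1%, 67.3 to 91.0), against 41.4% of all protein-coding genes. Of the scaffold proteins of the multisynthetase complex, AIMP2 and EEF1E1 had a start, and AIMP1 had a call exactly on a RefSeq start but none at a gene end. All 4 genes of mitochondrial amidation and formylation had a start. These were GATB, GATC and QRSL1, which convert glutamate on its tRNA to glutamine, and MTFMT, which formylates the initiator tRNA. All 7 entries listed for editing and related steps had one as well (AARSD1, DTD1, DTD2, PRORSD1P, PTRH2, PSTK and SEPSECS). PRORSD1P, whose symbol is that of a pseudogene, is counted among them.

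Of the cytosolic elongation factors EEF1A1, EEF1B2, EEF1G and EEF2 had a start, and EEF1A2 and EEF1D had no call at all. EEF1A1 delivers charged tRNA to the ribosome and was called on its first base. Of the mitochondrial factors TSFM, GFM1 and GFM2 had a start and TUFM did not, although 2 calls lay in or near it. In the response to uncharged tRNA 12 of 15 genes had a start (80%, 54.8 to 93.0), against the same 41.4% of all protein-coding genes. These were GCN1, the partner of the GCN2 kinase, ATF4, DDIT3, TRIB3, SESN2, CHAC1, PSAT1, SHMT2, SLC7A5, SLC3A2, SLC7A11 and CEBPB. EIF2AK4, which encodes GCN2 itself, had 1 call but no start at a gene end, PHGDH had no call, and the call of ASNS, asparagine synthetase, lay 20 bp before a RefSeq start.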

How the data were processed

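Nuclear RNA was measured by PRO-cap in 2 biological replicates of HUDEP-2, per the labels. BWA 0.7.16a, Picard, SAMtools 1.17, deepTools 3.5.4 and the build hg38 are named in the submitters' processing notes. The caller's version and threshold, and the way replicates were combined, were not given in the sources used here. Deposited by the authors were 1-base call positions, other values than measurements, printed here 1-based, and a score that is 0 in every row. No value per replicate was used, so p-values and spreads are absent.

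Calls on chromosomes 1 to 22 and X (26332, with 63 elsewhere left out) were set against a RefSeq gene table of GRCh38.p14, the build of hg38, without its 679 genes on further scaffolds. It lists outer gene ends but no strand. Strand, RefSeq starts and sequence came from RefSeq promoter windows of 300 bp, which matched 30 of 35 synthetase genes. For LARS1, YARS1 and AARS2 the direction was taken from the inward call. Of several start calls the nearest to the gene end was used. Shares have 95% Wilson intervals and differences Newcombe intervals, computed in Python 3.11.15 with NumPy 2.4.6, pandas 2.3.3, SciPy 1.17.1 and Biopython 1.88, and figures were drawn with matplotlib 3.10.9. No test over genes was made, since genes are not replicates.

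The members, gene lists and motifs were chosen with earlier results of these data known. The rule named all synthetase genes, the coding genes entered by their divergent partners and every listed gene, while DDX19B, UBFD1, LYRM4, ING1 and WARS2-AS1 were named after their values were seen. Of the listed genes, 1 is not reported here. On simulated calls planted at the 19821 coding genes, 100% of starts and partners were recovered, and 2.92% of genes without a planted start showed a neighbour's call.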

Additional observations from a re-analysis of the deposited data

How the results depend on the processing

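Of 41 alternatives for the counts of starts, partners, internal calls and related genes and for the median position, 33 kept the value within 1.5 times the reported one or, for the median, within the spread over genes, and 8 did not. With gene ends shifted by 10 kb, the genes with a start were 0 of 35, 0 of 19 cytosolic and 0 of 16 mitochondrial. With the partner limit at 150 bp, 8 of 29 starts had a partner, 3 cytosolic and 5 mitochondrial, against 24.6% of all called protein-coding genes. With internal calls required more than 1000 bp inside, 3 of 35 genes had one (8.57%, against 14.7% of all protein-coding genes), 1 of them cytosolic, since the internal calls of FARSB, TARS1, WARS1 and YARS2 lie nearer the gene end. The most upstream start call moved the cytosolic median from 9 to 2 bp, which is over 1.5 times but within the spread over genes. Windows of 200 and 1000 bp gave 28 and 30 genes with a start, and the end of the annotated strand alone gave 26 of 30. Of 37 alternatives for motifs and bases, 32 stayed within 1.5 times. The exceptions were the upstream part alone (ATF4 composite 2 of 16 cytosolic, E-box 1 and YY1 0 of 14 mitochondrial windows), any window (TATA letters in 2 of 16 cytosolic windows) and the pyrimidine-purine pair read 1 base downstream (14 of 26). Counting any window, adding calls at RefSeq starts, leaving out VARS1 and VARS2 and moving the pair by 1 base were chosen after seeing the data. Without VARS1 and VARS2 the starts were 29 of 33. No paired analysis was possible because the call set names no replicate, and for the same reason no replicate could be left out. Depth per call is unknown, and few genes limit each difference between the compartments.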
